A study of Homo sapiens with 6 samples.

Results

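RNA of 48 genes of the DNA replication machinery was compared between UE7T-9 cells, a mesenchymal stem cell line from human bone marrow, and the UE7T-9 SRRM4 KO line. The genes were chosen by symbol from the 58735 genes of the count table. Each symbol matched 1 gene, and all 48 were among the 15341 genes with enough counts to be tested. The control group held 3 libraries of genotype WT and the other group 3 libraries of genotype SRRM4 KO. Both were kept in Dulbecco's modified Eagle's medium. In the KO line SRRM4, which encodes a neuronal splicing factor, was targeted by CRISPR with a lentivirus and 1 clone was grown by limiting dilution, and the study describes its loss of SRRM4 protein as incomplete. The study raises lentivirus infection as a possible influence on its control cells, but no vector for them is given in the sources used here. The clone, the vector and the loss of SRRM4 cannot be told apart. They also do not say whether the 3 libraries of a group came from separate cultures, and p-values then measure only the spread between these samples, which may be technical.

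The libraries held 21496117 to 23868323 counts. SRRM4 was at 0 in every library, which allows up to 3 counts in each, so its RNA gave no check of the knockout. Control replicate 1 stood apart from the other controls, with 22403 genes counted against 20613 and 20674. The mesenchymal markers NT5E, ENG and THY1 were present in both groups. Of the 9 markers of that list 4 were higher in KO cells (among them CD44, NT5E and ALCAM) and 5 lower (among them THY1, PDGFRB and COL1A2), and their summed level was 40894 to 44937 CPM in control and 17751 to 19688 CPM in KO libraries. COL1A1 and COL1A2 made up most of that sum, and the other 7 markers summed to 2995 to 3104 CPM in control and 3165 to 3332 CPM in KO libraries. CPM are counts relative to the size of the library, as in edgeR's cpm, scaled for library composition. Markers of other cells were low. The 7 blood cell markers summed to 20.7 to 21.8 CPM in control and 17.9 to 21.1 CPM in KO libraries, most of it from CD14 (16.8 and 15.9 CPM) and CD34 (3.69 and 3.63 CPM), while PTPRC, the pan-leukocyte marker, had at most 2 counts in any library. The 5 endothelial markers summed to 22.5 to 26.1 and 4.43 to 5.86 CPM, with lower TEK and KDR in KO cells, and the 5 epithelial markers to 1.44 to 2.82 and 1.73 to 3.28 CPM. The part of these markers in the results below was not tested.

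Before S phase, the origin recognition complex (ORC) marks replication origins, and CDC6 and CDT1 load the ring-shaped MCM helicase there. CDC7 with DBF4, together with CDC45, the GINS complex and MCM10, then turns the loaded ring into an active helicase. Primase and the polymerases copy the opened strands, PCNA clamps the polymerases to DNA, and ribonucleotide reductase, thymidylate synthase and thymidine kinase supply the building blocks. Many of these genes are transcribed mainly around the entry into S phase, under E2F transcription factors, and proliferating cells contain more of their RNA than resting cells.

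RNA of most of the replication machinery was more abundant in SRRM4 KO cells. Of the 48 genes 41 rose, 2 fell and 5 did not pass the test (edgeR, adjusted p under 0.05 over all tested genes). The background is 20.7% of all tested genes higher and 20.9% lower. The median log2 fold change was 0.85 (quartiles 0.52 and 1.01), beside -0.01 over all tested genes. The rise was moderate in size. It exceeded 2-fold in 13 genes, where 5.45% of all genes rose as far, and no gene fell as far, where 7.14% of all genes did (edgeR at adjusted p; the count for the 48 genes was 0 also at an unadjusted p under 0.05 and with DESeq2). In 41 genes each KO library lay above each control library, and in 2 each lay below, where the background is 25.9% in either direction. Since whole cultures were measured, more cells in S phase and more of these RNAs per cell cannot be told apart. In its MTS assay of proliferation the study reports no significant difference between control and KO cells. How that result relates to these RNAs was not tested.

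**Figure D1:**
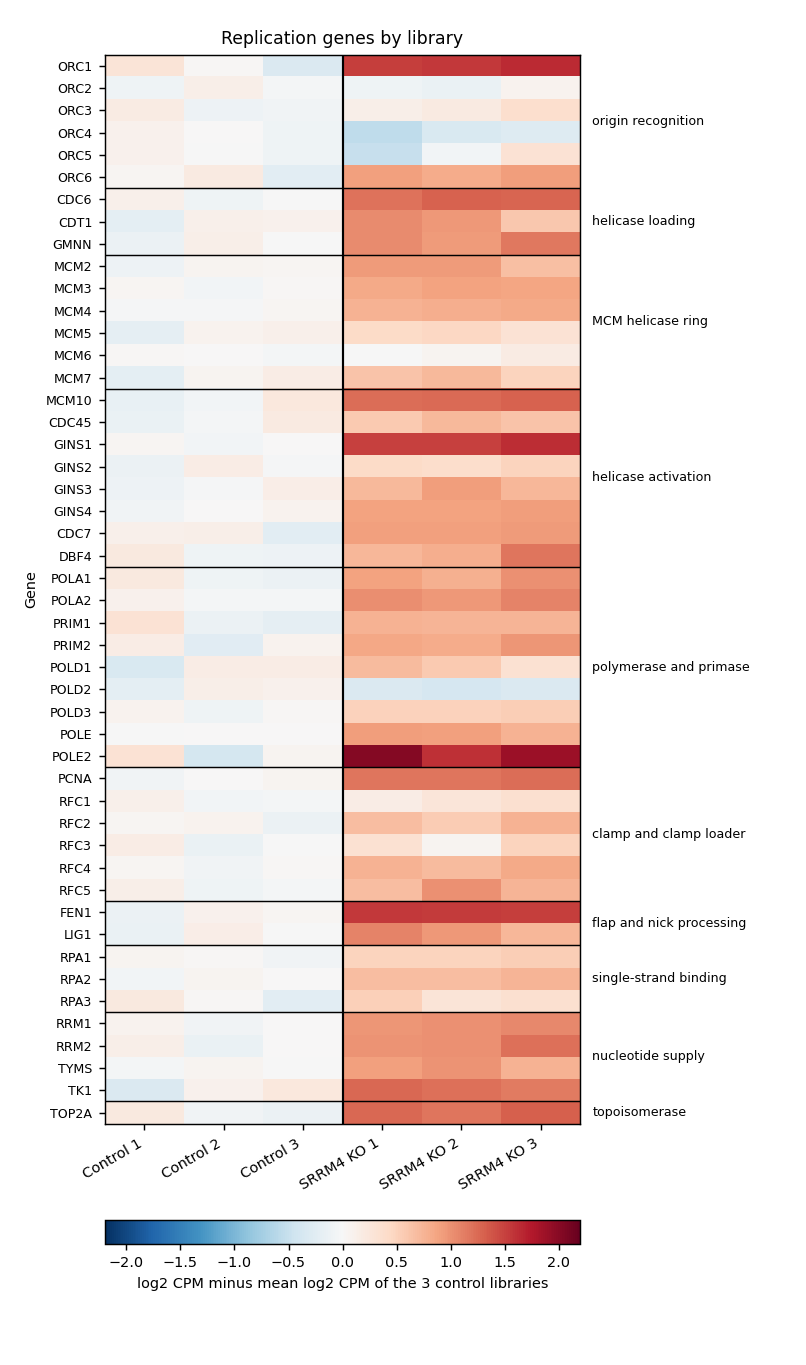
Level of each of the 48 genes in each of the 6 libraries, as log2 CPM minus the mean log2 CPM of the 3 control libraries. Rows are genes in blocks by role, columns are libraries, and red is higher than control. The KO columns are red for most genes, with ORC2 to ORC5, MCM6, RFC1, RFC3 and POLD2 among the pale or blue rows.

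Summed over the 48 genes, the libraries gave 2453, 2456 and 2464 CPM in control and 4214, 4211 and 4282 CPM in KO cells. The KO sum was 1.72 times the control sum, and the libraries of a group lay far closer together than the groups. The genes took 0.240% to 0.241% of all counts in control and 0.429% to 0.438% in KO libraries. By role, the ratio of the summed levels ran from 1.17 for the origin recognition complex, 1.37 for polymerases and primase, 1.45 for the single-strand binding proteins and 1.55 for the MCM ring to 1.81 for the clamp and its loader, 1.93 for helicase activation, 2.04 for nucleotide supply, 2.17 for helicase loading, 2.36 for TOP2A and 2.51 for FEN1 and LIG1. The groups did not overlap for any of these sums.

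The origin recognition complex split. Its largest subunit ORC1 had 169, 140 and 115 counts in control and 411, 459 and 438 in KO libraries, a log2 fold change of 1.56 (SE 0.16, adjusted p = 1.79e-06, edgeR). ORC6, the smallest subunit, was at 15.2 ± 2.24 CPM in control and 27.8 ± 1.14 CPM in KO cells (SD, n = 3), and its log2 fold change was 0.87 (SE 0.13). For both genes the groups did not overlap. None of the 4 subunits between them passed the test as higher. ORC3 had 959, 780 and 830 counts in control and 953, 1097 and 1105 in KO libraries (log2 fold change 0.23, adjusted p = 0.107, edgeR), so that the lowest KO library lay within the control range. ORC2 was at -0.05 (SE 0.12) and ORC5 at -0.04 (SE 0.18), and the KO libraries of ORC5 were spread from 235 to 410 counts. ORC4 fell from 805, 751 and 728 counts in control to 525, 675 and 630 counts in KO libraries (log2 fold change -0.39, SE 0.11, adjusted p = 0.0127). Its neighbourhood on chromosome 2 was as low: -0.40 was the median log2 fold change of the 100 nearest tested genes, and centred on it ORC4 stood at 0.02 (adjusted p = 0.934, edgeR). The call of ORC4 was also lost without KO replicate 1 (adjusted p = 0.0762, edgeR), and ORC3 passed without control replicate 1 (0.32, adjusted p = 0.00949, edgeR). ORC4 and MCM6 were singled out after their values were seen.

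Levels per kilobase divide by all annotated exons together, which can be longer than the transcripts present, so they compare genes only roughly. On this scale ORC1 was the least abundant of the 6 subunits in control, at 2.05 CPM per kb. It came to 6.04 CPM per kb in KO cells. ORC3 was the most abundant in both groups (10.6 and 12.5 CPM per kb). The other subunits lay between 3.53 and 4.17 in control, and their spread over libraries overlapped, so their order was not resolved.

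**Figure D2:**
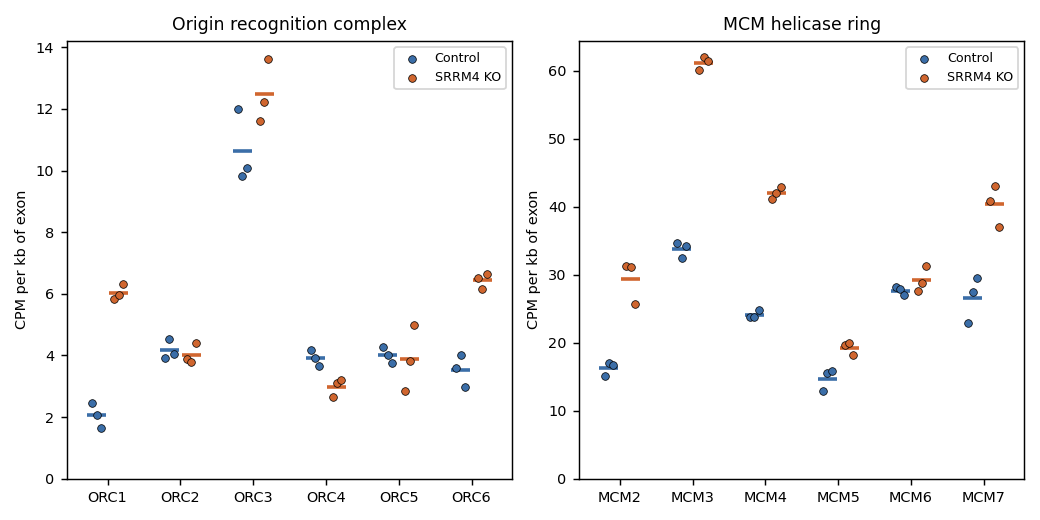
CPM per kilobase of exon in each library for the 6 subunits of the origin recognition complex (left) and the 6 of the MCM ring (right), with control in blue, SRRM4 KO in orange and the mean of 3 libraries as a bar. ORC1 and ORC6 lie higher in KO libraries, ORC4 lies lower and ORC2, ORC3 and ORC5 overlap, and in the ring MCM6 overlaps while the other 5 lie higher.

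All 3 genes of helicase loading rose. CDC6, the ATPase that joins ORC at the origin, had 1085, 939 and 1026 counts in control and 2371, 2783 and 2470 in KO libraries (log2 fold change 1.25, SE 0.09, adjusted p = 3.88e-08, edgeR). CDT1, which brings the MCM ring, rose from 20.2 ± 2.41 to 36.7 ± 5.70 CPM (SD, n = 3), and its KO libraries held 915, 942 and 665 counts. GMNN encodes geminin, the protein that binds and blocks CDT1, and it rose together with its target. It had 533, 629 and 595 counts in control and 1228, 1254 and 1320 in KO libraries (log2 fold change 1.05, SE 0.11, adjusted p = 1.46e-06). The ratio of CDT1 to GMNN counts was 0.707 to 0.808 in control and 0.504 to 0.751 in KO libraries, and these ranges overlapped (exact two-sided permutation test, p = 0.6, where 3 against 3 libraries cannot go below 0.1).

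In the MCM ring 5 of 6 subunits rose, each by less than 2-fold. MCM3, the most abundant of them per kilobase, had 2739, 2550 and 2784 counts in control and 4885, 5505 and 4928 in KO libraries (log2 fold change 0.86, SE 0.08, adjusted p = 3.94e-07, edgeR). MCM2 (0.85) and MCM4 (0.80) changed by nearly as much on the log2 scale, and MCM7 (0.60, SE 0.10) and MCM5 (0.39, SE 0.09) by less. MCM6 did not pass the test. It had 2510, 2478 and 2479 counts in control and 2533, 2881 and 2834 in KO libraries, and once scaled the groups overlapped. Its log2 fold change was 0.08, with an approximate 95% interval of -0.09 to 0.24 (adjusted p = 0.493, edgeR). MCM6 made up 18.2% to 20.5% of the summed level per kilobase of the ring in control and 12.5% to 14.5% in KO libraries. This share restates the difference in change. The neighbourhoods of the subunits differed too. The median over the 100 nearest tested genes was a log2 fold change of -0.35 around MCM6, -0.31 around MCM5 and -0.25 around MCM7, beside 0.15 around MCM3, 0.14 around MCM4 and 0.11 around MCM2. After centring on these medians all 6 subunits passed the test, MCM6 at 0.43 (adjusted p = 0.000871, edgeR) and the other 5 between 0.66 and 0.85.

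**Figure D3:**
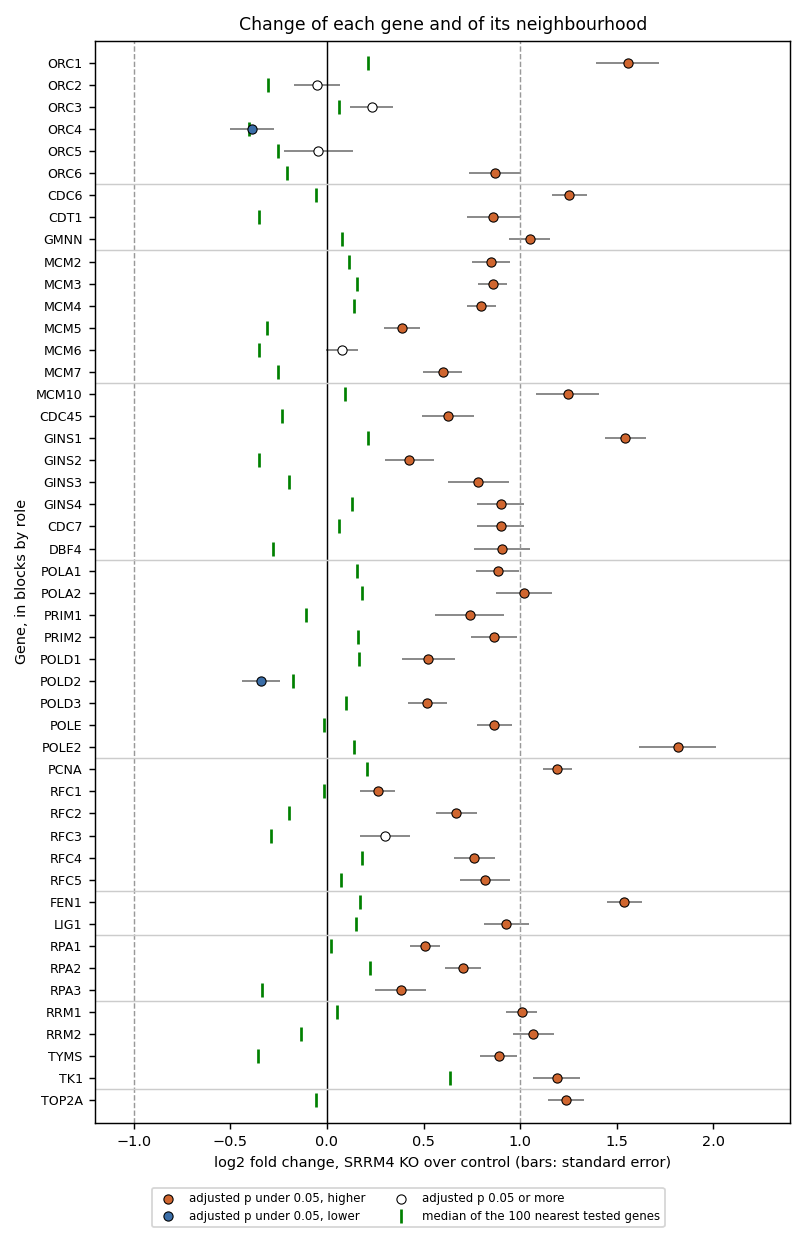
Fitted log2 fold change of each gene (SRRM4 KO over control, circles, bars for the standard error) and the median log2 fold change of the 100 nearest tested genes on its chromosome (green ticks). Orange genes rose, blue genes fell and white genes did not pass the test. Dashed lines mark 2-fold. The ticks run from -0.40 at ORC4 to 0.63 at TK1, and 47 of the 48 circles lie to the right of their own tick.

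Over all 48 genes, which lie on 19 chromosomes, the neighbourhood median was below 0 for 23 and above 0 for 25. With each gene centred on its neighbourhood, 42 rose and none fell (edgeR, with 18.3% of all tested genes higher and 17.9% lower, and 0 members lower at an unadjusted p under 0.05), and the median was 0.78. Before centring 2 fell in both edgeR and DESeq2. POLD2 was then the gene left below 0. Between the uncentred and the centred fit MCM6 and RFC3 gained the call of a rise, POLD1 lost it (log2 fold change 0.36, adjusted p = 0.0512, edgeR) and ORC4 and POLD2 lost the call of a fall. The neighbourhood was farthest from 0 for TK1, on chromosome 17. Whole chromosomes differed too. Among these 19 the median log2 fold change of the tested genes ran from -0.34 on chromosome 18 to 0.32 on X, with -0.25 on chromosome 2.

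The promoters of several genes carry words of the E2F recognition motif, and those the contrast within the ring turns on are shown here with the largest rise (POLE2), the most abundant gene (PCNA), CDC6 and the polymerase subunit that fell (POLD2). The sequences come from RefSeq (GRCh38.p14) and run 5′ to 3′ on the strand of the gene, from 200 bases before the annotated start to 20 bases after it. Capitals mark matches to TTTCCCGC, TTTCGCGC, TTTGCCGC or TTTGGCGC on either strand, where matches may overlap.
CDC6 (chr17:40287679-40287898, plus strand): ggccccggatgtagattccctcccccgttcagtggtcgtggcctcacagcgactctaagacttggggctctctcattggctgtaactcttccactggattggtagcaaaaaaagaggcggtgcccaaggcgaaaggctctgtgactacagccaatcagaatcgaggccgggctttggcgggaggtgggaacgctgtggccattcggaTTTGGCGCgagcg
MCM2 (chr3:127598211-127598430, plus strand): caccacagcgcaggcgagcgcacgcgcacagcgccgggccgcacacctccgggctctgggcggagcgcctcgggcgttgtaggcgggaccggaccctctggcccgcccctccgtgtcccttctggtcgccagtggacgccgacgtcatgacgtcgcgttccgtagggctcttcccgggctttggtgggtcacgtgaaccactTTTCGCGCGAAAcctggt
MCM3 (chr6:52284723-52284942, minus strand): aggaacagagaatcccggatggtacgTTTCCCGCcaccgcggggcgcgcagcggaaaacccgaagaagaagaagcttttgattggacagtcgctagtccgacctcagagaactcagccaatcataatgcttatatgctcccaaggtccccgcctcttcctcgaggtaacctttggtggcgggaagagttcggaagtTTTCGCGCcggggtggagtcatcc
MCM6 (chr2:135876424-135876643, minus strand): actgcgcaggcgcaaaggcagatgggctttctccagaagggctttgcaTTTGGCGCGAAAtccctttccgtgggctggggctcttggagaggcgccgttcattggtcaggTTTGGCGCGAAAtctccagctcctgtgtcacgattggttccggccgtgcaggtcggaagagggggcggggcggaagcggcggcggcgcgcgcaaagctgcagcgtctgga
MCM7 (chr7:100101378-100101597, minus strand): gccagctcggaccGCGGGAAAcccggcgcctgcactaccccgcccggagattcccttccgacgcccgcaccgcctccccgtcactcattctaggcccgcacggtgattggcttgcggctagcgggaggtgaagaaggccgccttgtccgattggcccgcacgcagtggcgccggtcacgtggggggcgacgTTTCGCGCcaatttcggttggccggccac
POLE2 (chr14:49688195-49688414, minus strand): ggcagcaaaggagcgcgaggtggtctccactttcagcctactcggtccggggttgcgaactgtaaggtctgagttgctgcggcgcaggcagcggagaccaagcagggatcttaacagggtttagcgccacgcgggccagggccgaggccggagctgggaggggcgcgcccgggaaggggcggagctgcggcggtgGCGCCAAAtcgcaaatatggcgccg
PCNA (chr20:5126603-5126822, minus strand): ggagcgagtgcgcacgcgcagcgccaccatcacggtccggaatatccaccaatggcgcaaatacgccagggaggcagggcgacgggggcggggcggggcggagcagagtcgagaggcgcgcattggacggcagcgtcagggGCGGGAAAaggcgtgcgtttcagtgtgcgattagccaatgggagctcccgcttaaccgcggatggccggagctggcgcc
POLD2 (chr7:44123529-44123748, minus strand): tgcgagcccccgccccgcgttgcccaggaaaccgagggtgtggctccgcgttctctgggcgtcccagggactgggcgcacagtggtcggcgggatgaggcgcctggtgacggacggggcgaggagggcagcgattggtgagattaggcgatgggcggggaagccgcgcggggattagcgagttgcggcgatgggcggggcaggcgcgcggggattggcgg

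RefSeq promoters of 300 bases (250 before and 50 after the start) were found for 42 of the 48 genes. MCM4, MCM5, GINS4, POLD3, RPA2 and RPA3 had no entry. At least 1 of these words stood in the promoters of 20 of the 42 genes (47.6%), beside 6.59% of the 10774 tested genes with an entry and 3.99% of all 27305 genes of the table. Among the replication genes that rose the share was 17 of 35, and among those that did not pass the test it was 3 of 5 (ORC3, MCM6 and RFC3). MCM6, which did not pass the test, held 4 overlapping matches in 2 places, at -152 and -90 from the start, more than any of the other promoters printed above. MCM2 held 2 matches just after the start, MCM3 and MCM7 held 2 each, and CDC6, POLE2 and PCNA 1 each. POLD2 held none, which says only that these letters are not in this window. The short word CCAAT stood in 25 of the 42 (59.5%) and in 43.1% of the tested genes. A match is not a binding site, and binding of E2F factors was not measured.

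All 8 genes of helicase activation rose. Within the 4-part GINS complex the changes differed in size. GINS1 had 383, 354 and 384 counts in control and 1082, 1187 and 1156 in KO libraries, a log2 fold change of 1.55 (SE 0.10, adjusted p = 1.99e-08, edgeR). GINS4 (0.90, SE 0.12), GINS3 (0.78, SE 0.16) and GINS2 (0.43, SE 0.13) changed less on the log2 scale, and the call of GINS2 was lost without KO replicate 3 (adjusted p = 0.0515, edgeR). GINS2 and GINS3 lie on chromosome 16, in neighbourhoods at -0.35 and -0.20, and GINS1 on chromosome 20 in one at 0.21. Centred, GINS1 was at 1.33, GINS3 at 0.98, GINS2 at 0.78 and GINS4 at 0.77. MCM10, a scaffold of the forming fork and, with POLE2, POLA2 and GINS3, among the genes of lowest level per kilobase in control, had 101, 108 and 137 counts in control and 274, 303 and 282 in KO libraries (log2 fold change 1.25, SE 0.16, adjusted p = 1.99e-05). The kinase CDC7 and its activator DBF4 rose by 0.90 (SE 0.12) and 0.91 (SE 0.15) on the log2 scale, and centred they were at 0.84 and 1.19. CDC45, which acts with GINS on the ring, was at 0.63 (SE 0.14).

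Of the 9 genes of polymerases and primase 8 rose and 1 fell. POLE2, the second subunit of the leading-strand polymerase epsilon, showed the largest change of the 48 genes. It had 93, 57 and 80 counts in control and 311, 256 and 278 in KO libraries, a log2 fold change of 1.82 (SE 0.20, adjusted p = 3.55e-06, edgeR). Per kilobase it was below the catalytic subunit POLE in control, at 1.19 against 2.73 CPM per kb, and close to it in KO cells, at 4.19 against 4.98. The length used was 2955 bases for POLE2 and 16609 for POLE, all annotated exons together. POLE itself rose from 45.3 ± 0.456 to 82.7 ± 4.93 CPM (SD, n = 3). Of polymerase alpha, which starts each strand together with primase, POLA2 had 161, 146 and 151 counts in control and 315, 330 and 328 in KO libraries (log2 fold change 1.02, SE 0.14, adjusted p = 4.19e-05). POLA1 (0.88), PRIM2 (0.87) and PRIM1 (0.74) also rose, as log2 fold changes.

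Polymerase delta, the lagging-strand enzyme, held the gene that fell. Its subunits POLD1 and POLD3 rose by 0.53 and 0.52 on the log2 scale (SE 0.14 and 0.10). POLD2, the most abundant of the polymerase genes per kilobase, fell from 2154, 2732 and 2755 counts in control to 2073, 2191 and 2039 in KO libraries (log2 fold change -0.34, SE 0.10, adjusted p = 0.011, edgeR). The highest KO library lay just above the lowest control library in raw counts and below it once scaled, at 93.0 against 99.4 CPM. Leaving out control replicate 2 or 3, or KO replicate 2, ended the call of POLD2 (adjusted p = 0.0581, 0.0541 and 0.0506, edgeR) and after centring (log2 fold change -0.17, adjusted p = 0.203).

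PCNA, the sliding clamp, was by far the most abundant of the 48 genes per kilobase, at 125 CPM per kb in control and 286 CPM per kb in KO cells. It had 3779, 3991 and 4304 counts in control and 9255, 10085 and 9532 in KO libraries (log2 fold change 1.19, SE 0.08, adjusted p = 9.60e-09, edgeR). Its loader, replication factor C, changed less. RFC5 (0.82), RFC4 (0.76) and RFC2 (0.67) rose, as log2 fold changes. RFC1, the large subunit, was at 0.26 (SE 0.09, adjusted p = 0.028), and RFC3 at 0.30 (SE 0.13, adjusted p = 0.0732). RFC3 passed without control replicate 1 or KO replicate 2 (adjusted p = 0.0131 and 0.0352, edgeR). The call of RFC1 was lost under the replicate block (adjusted p = 0.0548) and in 4 of the 6 fits without one library, those without control replicate 2 or 3 and without KO replicate 2 or 3 (adjusted p = 0.0936 to 0.137, edgeR).

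FEN1, the nuclease that trims the flaps of Okazaki fragments, had 1049, 1210 and 1206 counts in control and 3474, 3735 and 3347 in KO libraries. This was a log2 fold change of 1.54 (SE 0.09, adjusted p = 3.23e-09, edgeR), a 2.91-fold rise. LIG1, the ligase that seals the remaining nick, rose from 34.9 ± 3.65 to 66.5 ± 8.16 CPM (SD, n = 3). FEN1 shares 8.68% of its exonic bases with other genes, the most with TMEM258 on the other strand. The non-stranded reads cannot separate FEN1 from TMEM258, which was at a log2 fold change of 0.44.

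The 3 subunits of replication protein A, which coats single-stranded DNA, were among the smaller rises. RPA1 had 3327, 3237 and 3131 counts in control and 4631, 5086 and 4733 in KO libraries (log2 fold change 0.51, SE 0.08, adjusted p = 8.68e-05, edgeR). RPA2 had 737, 796 and 797 counts in control and 1270, 1381 and 1317 in KO libraries (0.70, SE 0.09, adjusted p = 2.35e-05). RPA3, the small subunit, was at 0.38 (SE 0.13, adjusted p = 0.0304), and this call was lost without control replicate 2 or 3 and without KO replicate 1 or 3 (adjusted p = 0.0616 to 0.146, edgeR). Its neighbourhood was at -0.34. Centred, RPA3 was at 0.72 (adjusted p = 0.000532, edgeR), beside 0.49 for RPA1 and 0.48 for RPA2.

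All 4 genes of nucleotide supply rose. RRM1 and RRM2 are the large and small subunits of ribonucleotide reductase. RRM1 had 3021, 2702 and 2985 counts in control and 5762, 6494 and 6091 in KO libraries (log2 fold change 1.01, SE 0.08, adjusted p = 9.54e-08, edgeR). RRM2 had 699, 573 and 663 counts in control and 1298, 1447 and 1500 in KO libraries (1.07, SE 0.11, adjusted p = 1.35e-06). Per kilobase RRM1 stood well above RRM2, at 31.8 against 5.54 CPM per kb in control and 64.0 against 11.6 in KO cells. TK1, the thymidine kinase of dividing cells, had 675, 897 and 1015 counts in control and 2092, 2191 and 1887 in KO libraries (1.19, SE 0.12, adjusted p = 1.57e-06). Its neighbourhood was higher as well, and centred on it TK1 was at 0.55 (adjusted p = 0.002). TYMS, thymidylate synthase, rose from 34.4 ± 1.27 to 63.6 ± 4.71 CPM (SD, n = 3). TYMS shares 46.6% of its exonic bases with other genes, the most with ENOSF1 on the other strand. ENOSF1 was lower in KO cells (log2 fold change -0.60, adjusted p = 0.000812, edgeR).

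TOP2A, the topoisomerase that untangles replicated chromosomes and peaks after S phase, had 4935, 3970 and 3963 counts in control and 10385, 10711 and 10637 in KO libraries. Its log2 fold change was 1.24 (SE 0.09, adjusted p = 7.35e-08, edgeR). Per kilobase it was at 30.5 CPM per kb in control, where its libraries overlapped those of MCM3, RRM1 and POLD2, and at 71.9 CPM per kb in KO cells.

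Most genes of replication outside the 48 rose as well. Of 37 other replication factors 28 rose and none fell (edgeR, 0 also at an unadjusted p under 0.05 and with DESeq2), with a median log2 fold change of 0.75. Over all tested genes 20.7% rose and 20.9% fell. The histone chaperone genes CHAF1B (1.52) and ASF1B (1.51) rose most. RNASEH2A (1.40, adjusted p = 0.0391) rested on 6 to 28 counts per library and lost its call after centring (adjusted p = 0.0988). Of 19 other genes of nucleotide supply 15 rose and 1 fell, beside the same 20.7% and 20.9% of all tested genes, with a median of 0.39. Centred on their neighbourhoods 11 rose and 1 fell, beside 18.3% and 17.9% of all tested genes. SAMHD1, which breaks down deoxynucleotides, rose by 1.31 and NME1 by 1.26 on the log2 scale, while the mitochondrial thymidine kinase TK2 fell by 0.61. NME1 lies in a neighbourhood at 0.54 and TK2 in one at -0.34. Centred, NME1 was at 0.72 and TK2 at -0.27 (adjusted p = 0.0409 for TK2, edgeR).

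Of 29 regulators of the entry into S phase 12 were higher and 5 lower, beside 20.7% and 20.9% of all tested genes. E2F1, an activator of replication genes, rose from 24.6 ± 3.52 to 72.8 ± 9.79 CPM (SD, n = 3), and E2F7, a repressor of the same family, from 53.2 ± 3.07 to 177 ± 6.08 CPM (SD, n = 3). The kinase inhibitor gene CDKN2D rose from 6.32 ± 1.64 to 17.9 ± 1.35 CPM (SD, n = 3). Of the other inhibitor genes of the list CDKN2C rose by 0.76 on the log2 scale, CDKN1A (-0.01) and CDKN2A (-0.13) did not pass the test, and CDKN1B (-0.48), CDKN2B (-0.75) and CDKN1C fell, CDKN1C from 51, 58 and 91 counts in control to 6, 1 and 1 in KO libraries. CDK6 fell by 0.83. All 20 mitotic genes rose beyond 2-fold (edgeR), where 5.45% of all tested genes rose as far. Their median log2 fold change was 1.39, beside 0.85 for the 48 replication genes. AURKA (1.73), AURKB (1.84) and BIRC5 (1.97) had the largest log2 fold changes. BIRC5 lies in a neighbourhood at 0.63, and centred on it BIRC5 was at 1.34. The summed level of the mitotic list was 797 to 873 CPM in control and 2119 to 2138 CPM in KO libraries. The difference between the mitotic and the replication genes was not tested.

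Within a group, the replication genes differed between libraries along the base composition of their transcripts. In control replicate 1 all 9 genes whose longest transcript has at least 55% GC (CDT1, MCM2, MCM5, MCM7, POLD1, POLD2, POLE, LIG1 and TK1) lay below the mean of the other controls, at a median of -0.31 on the log2 scale. Of the 21 genes under 45% GC 17 lay above it, at a median of 0.16. KO replicate 3 differed from the other KO libraries in the same way, with 8 of the 9 below and 18 of the 21 above. Across the 48 genes, which share their libraries, Spearman's rho between GC and the deviation was -0.65 in control replicate 1 and -0.69 in KO replicate 3. Across 15335 tested genes it was -0.60 and -0.42. The change between the groups did not follow GC, with a rho of 0.09 across the 48 genes and medians of 0.85 and 0.82 for the GC-rich and GC-poor genes. Without control replicate 1, 43 of the 48 genes rose and 2 fell, and without KO replicate 3, 38 rose and 2 fell.

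**Figure D4:**
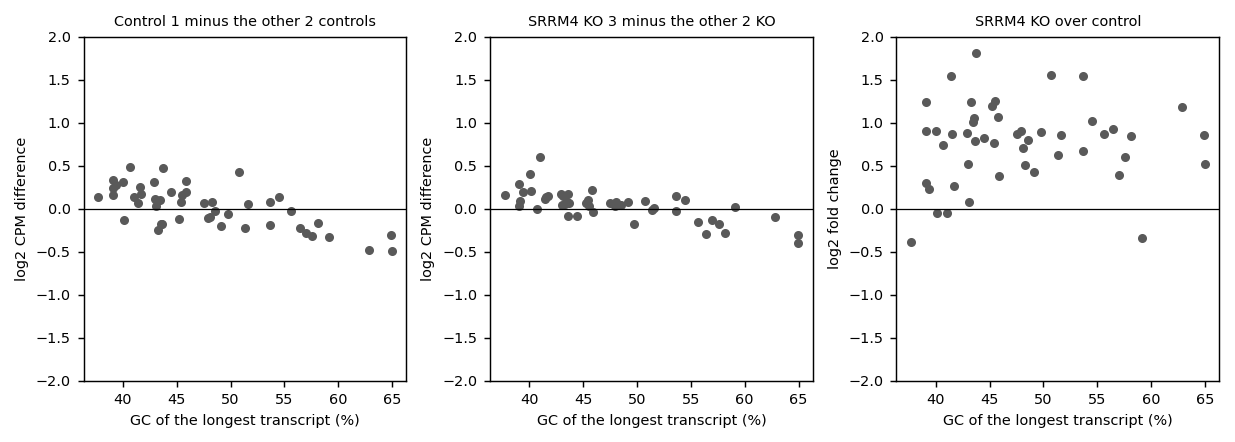
GC content of each gene's longest transcript (horizontal, percent) against the log2 CPM of control replicate 1 minus the mean of the other controls (left), the same for KO replicate 3 (middle) and the log2 fold change between the groups (right), 1 point per gene. The 2 deviations slope down with GC, and the fold change has no slope of that kind.

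Reads of near-identical copies and overlapping genes limit some values. Of 16 pseudogenes named after 9 of these genes, 2 had any count, and at most 5 in a library. The treatment of reads that match several places is not given, so these counts cannot show how many reads are shared. Shares of exonic bases are given over all overlapping genes together. Several genes have their largest overlap with a gene counted at no more than 0.123 CPM. Among them POLA2 shares 35.1% of its exonic bases, MCM2 and GINS4 23.6% each, PRIM1 21.6%, RRM2 20.2%, GINS3 10.9% and POLD1 8.64%. Besides TYMS and FEN1, some have their largest overlap with an expressed gene. MCM7 shares 8.94% (the most with AP4M1), RFC5 10.6% (WSB2) and ORC4 6.58% (ACVR2A). How reads on shared bases were counted is not given in the sources used here, so levels per kilobase of these genes are uncertain.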

How the data were processed

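RNA of 3 control and 3 SRRM4 KO samples was read by mRNA-seq that does not mark strand. The authors deposited raw read counts per gene, whole numbers without normalization. The submitters' processing notes name HISAT2 2.0.5, featureCounts 1.5.0-p3 and DESeq2, without settings. The genome build was not given in the sources used here. All 58735 gene IDs are in GENCODE release 29, with gene lengths equal to its union of exons.

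The 15341 genes kept by filterByExpr were fitted with edgeR 4.0.16 (R 4.3.3), using TMM scaling, its quasi-likelihood test with prior count 0.125, and Benjamini-Hochberg adjustment. A gene passed with an adjusted p under 0.05, and 2-fold calls also needed a log2 fold change beyond 1. Standard errors were derived from the fold change and the F statistic. CPM use the scaled library sizes, and CPM per kb divide them by the gene length. The alternatives were DESeq2 1.42.0, other scalings and filters, a block for replicate number, leaving out each library, protein-coding genes only, a test against 2-fold, and centring each gene on the median of its 100 nearest tested genes. In simulated counts (15176 genes tested) edgeR recovered 71 of 200 genes given a log2 change of 0.5, with 8 false calls. For a change of 1 it recovered 150 of 200, with 14 false calls (15178 genes tested).

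The genes and lists were chosen with earlier results of these data known. Values per library are given for genes past 2-fold and, in each role, for the genes of largest change and of highest level per kilobase. By rule at most 3 genes per list and direction are named. The other inhibitor genes (CDKN1A, CDKN1B, CDKN2A, CDKN2C), the other markers named and other genes given per library were picked after their values were seen. Floors cover counting error only.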

Additional observations from a re-analysis of the deposited data

How the results depend on the processing

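Over 14 other settings, 37 of the 41 genes that rose kept the call in each one. GINS2, POLD1, RFC1 and RPA3 lost it in at least 1. With one library left out, 38 to 43 of the 48 genes rose, 1 to 2 fell, and 10 to 13 rose beyond 2-fold. The lower count of 1 came without control replicate 2 or 3 and without KO replicate 1 or 2. Among the other replication factors 0 to 1 fell (1 without control replicate 1 or 3), and among the other nucleotide genes 1 to 2 (2 without control replicate 1). Centred on the 100 nearest genes, 0 of the 48 fell, and the log2 fold changes of ORC2 (0.25), ORC4 (0.015) and ORC5 (0.21) turned to above 0 without passing the test. With one library left out ORC2 ran from -0.13 to 0.013 and ORC5 from -0.27 to 0.13. The test against 2-fold called 7 of the 48 genes higher in place of 13, and 360 genes higher and 577 lower among all in place of 836 and 1096.

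With the replicate block 40 genes rose and 2 fell, and RFC1 lost its call. Libraries with the same number did not deviate together (correlations of -0.05, 0.08 and -0.05), so they share only a number. Of the 5 genes that did not pass the test, the approximate 95% interval of the log2 fold change was widest for ORC5 (-0.39 to 0.30) and narrowest for MCM6 (-0.09 to 0.24).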
